A study of Rattus norvegicus with 35 samples.

Results

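Liver cells hold their cholesterol within narrow limits through a small set of proteins that sense sterols, carry them between membranes and move them in and out of the cell. The genes described here are Insig1, Insig2, Stard4, Srebf2, Scap, Npc1, Abca1 and Scarb1, taken as a list of sterol sensing, uptake and efflux. Members were all probe sets that the platform's annotation table assigned to 1 of these genes alone. Of the 8 listed genes 7 had such a probe set, among 14217 genes named in this way. They carried 16 probe sets, of which 15 passed the filter on low values (a value above the array's own median in at least 2 of 35 arrays), as did 17973 probe sets in all. No probe set was named for Npc1, which moves cholesterol out of lysosomes, and it was not analysed here.

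Primary rat hepatocytes were exposed through the medium for 72 h, and total RNA was measured on Affymetrix rat arrays. There were 12 groups: the vehicle DMSO at 0.1%, the triazole fungicides myclobutanil, propiconazole and triadimefon at 10, 30 and 100 uM each, phenobarbital at 200 uM and PCN at 30 uM, the last 2 serving as positive controls. The label of every array bears 1 of the codes Rs256, Rs293 or Rs304, and each group had 3 arrays, 1 per code; PCN alone had 2 and lacked Rs256. The series counts the arrays as biological replicates, but the labels do not say what the Rs code marks or whether arrays came from separate animals, so p-values measure the spread between these arrays, which may be technical. The strain, sex and age of the rats are not given in the sources used here, and cultured hepatocytes lack the blood supply and neighbouring cells of the liver.

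When sterols in the endoplasmic reticulum are plentiful, the Insig proteins hold Scap and the transcription factor it escorts, SREBP-2 (the product of Srebf2), in that membrane; when sterols fall, the complex leaves for the Golgi, the factor is cut free, and genes of sterol synthesis and uptake are transcribed. Insig1 is itself a known target of this factor, so that the pathway feeds back on itself. Triazole fungicides are designed against the sterol demethylase of fungi, and mammals carry the same enzyme, Cyp51. The 3 compounds share the triazole ring and differ in other groups, which are a nitrile in myclobutanil, a ketone in triadimefon and a dioxolane ring in propiconazole.

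The promoters of 3 members are shown because their probe sets behaved differently: Insig1 and Scap were higher at 100 uM of propiconazole and Insig2 was not called. Each runs from 250 bases before to 50 bases after the annotated start, 5′ to 3′ in the direction of the gene (RefSeq, build GRCr8). Capitals mark matches on either strand to the CCAAT box (CCAAT), the GC box (GGGCGG) and the E-box (CACGTG).
Insig1, chr4:8057720-8058019, minus strand: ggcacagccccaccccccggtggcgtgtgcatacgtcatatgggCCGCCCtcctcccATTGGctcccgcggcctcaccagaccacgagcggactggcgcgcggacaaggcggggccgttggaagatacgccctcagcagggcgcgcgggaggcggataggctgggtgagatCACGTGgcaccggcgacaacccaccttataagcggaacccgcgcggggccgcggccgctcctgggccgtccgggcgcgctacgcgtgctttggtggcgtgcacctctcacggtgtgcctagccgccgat
Scap, chr8:119184188-119184487, plus strand: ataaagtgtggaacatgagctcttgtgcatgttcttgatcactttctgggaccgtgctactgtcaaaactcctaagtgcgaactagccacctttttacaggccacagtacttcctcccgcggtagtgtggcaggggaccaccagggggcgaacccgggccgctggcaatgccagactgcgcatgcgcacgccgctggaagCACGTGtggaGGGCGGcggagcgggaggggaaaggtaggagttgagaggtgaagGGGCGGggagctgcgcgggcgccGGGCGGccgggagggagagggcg
Insig2, chr13:35040049-35040348, minus strand: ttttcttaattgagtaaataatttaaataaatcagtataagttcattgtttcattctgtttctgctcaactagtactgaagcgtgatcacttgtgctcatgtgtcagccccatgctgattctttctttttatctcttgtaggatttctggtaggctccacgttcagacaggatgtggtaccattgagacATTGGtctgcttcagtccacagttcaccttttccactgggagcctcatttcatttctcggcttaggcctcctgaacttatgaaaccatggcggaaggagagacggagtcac

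The Insig1 window held a GC box whose first base lay 206 bases before the start, a CCAAT box at 193 and an E-box at 79. Scap held GC boxes beginning 40 bases before and at bases 5 and 28 after the start, and an E-box at 50 before it. Insig2 held a CCAAT box at 61 bases before the start and neither other motif. Among 33469 RefSeq promoters of the same length, CCAAT was present in 37.5%, GGGCGG in 33.1% and CACGTG in 6.42%. A core of the sterol regulatory element, TCACNCCAC, was present in 1.12% of them and was not found in the windows of Insig1, Insig2, Srebf2, Scap or Abca1, the 5 measured members with a promoter in the table. That covers these letters in these windows alone. Whether hepatocytes use the annotated starts was not tested, nor was any link between these motifs and the changes. Stard4 and Scarb1 had no entry.

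The deposited values lay on a log-like scale of unstated base with array medians between -0.034 and 0.022. Changes are therefore given in units of that scale after quantile normalization, and the levels of members are not compared between probe sets. Array SDs before normalization ran from 0.646 to 0.941, the widest being propiconazole at 30 uM in Rs293; the next was 0.754. As a check of the cell type, the 9 hepatocyte marker genes with a probe set had means at percentiles 91.1 to 100 of all probe sets, a coarse guide, since probe sets differ in brightness. None of 6 endothelial markers passed the filter, but 6 of 9 macrophage, 7 of 10 stellate cell and 3 of 5 cholangiocyte markers did. Epcam of the cholangiocyte list stood at percentile 96.7, and the macrophage markers Lyz2 and Cd14 at 90.2 and 91.0. Each contrast was fitted with limma over all 35 arrays without a term for the Rs code, and a probe set was called at an adjusted p (Benjamini-Hochberg over 17973 probe sets) below 0.05. Arrays of one code deviated together, so the fit with the code as a replicate block is given wherever it changed the call of a member, and for the other gene lists as counts. All contrasts against DMSO share the same 3 DMSO arrays.

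Insig1, the retention protein that is made when SREBP is active, rose with all 3 triazoles at 100 uM. In DMSO its values were 2.91 in Rs256, 2.68 in Rs293 and 2.77 in Rs304. With myclobutanil at 100 uM they were 3.30, 3.40 and 3.12 in the same order. The corresponding values were 3.30, 3.18 and 3.07 with propiconazole and 3.43, 3.29 and 3.18 with triadimefon. All 9 triazole arrays at this dose lay above every DMSO array. The change was 0.49 units for myclobutanil (SE 0.104, limma adjusted p = 0.026, n = 3 per group), 0.39 for propiconazole (SE 0.104, adjusted p = 0.013) and 0.51 for triadimefon (SE 0.104, adjusted p = 0.010). Within Rs256, Rs293 and Rs304 it was 0.39, 0.72 and 0.35 for myclobutanil, 0.38, 0.50 and 0.30 for propiconazole and 0.51, 0.62 and 0.41 for triadimefon, higher in 3 of 3 codes each time. On the values as deposited the changes were 0.57, 0.34 and 0.65, and none of them was called (adjusted p = 0.998, 0.715 and 0.712; 0.40, 0.49 and 0.25 with the block). All 3 calls also ended without Rs293 (0.37, 0.34 and 0.46; adjusted p = 0.40, 0.23 and 0.24), without Rs304 (0.55, 0.44 and 0.57; adjusted p = 0.13, 0.055 and 0.10) and without the DMSO array of Rs293 (0.43, 0.34 and 0.46; adjusted p = 0.14, 0.080 and 0.068).

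**Figure D1:**
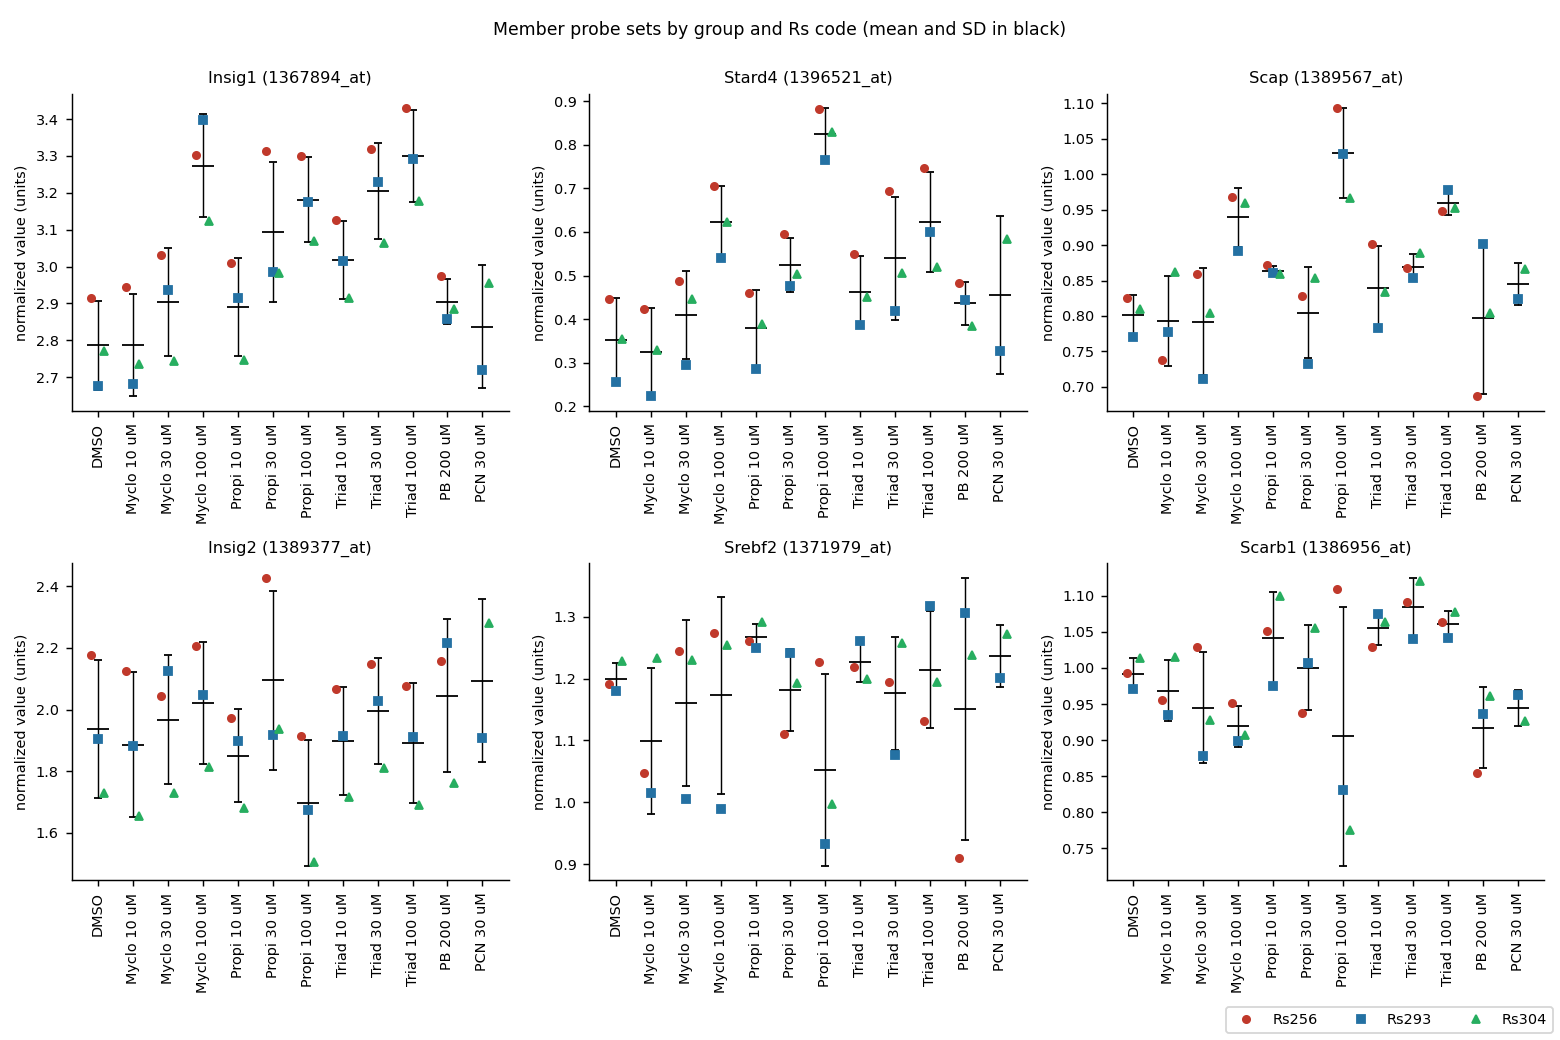
Normalized value in units (vertical axis, its range set per panel) of 1 probe set each of Insig1, Stard4, Scap, Insig2, Srebf2 and Scarb1 in the 12 groups (horizontal axis). Each point is an array, coloured and shaped by Rs code, and black bars are the group mean and SD. Insig1 at 100 uM lies between 3.07 and 3.43 with the triazoles and between 2.68 and 2.91 in DMSO; Insig2 and Srebf2 show no such step.

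At 10 and 30 uM no change in Insig1 passed the unblocked test. At 30 uM Insig1 read 3.32, 3.23 and 3.06 with triadimefon, 3.31, 2.99 and 2.98 with propiconazole and 3.03, 2.94 and 2.74 with myclobutanil, in Rs256, Rs293 and Rs304. The triadimefon and propiconazole arrays lay above all DMSO arrays and the myclobutanil arrays overlapped them. The change was 0.42 (SE 0.104) for triadimefon, with adjusted p = 0.27 in limma and 0.0016 with the replicate block. It was 0.31 (SE 0.104) for propiconazole, with adjusted p = 0.59 and 0.014 with the block; on the values as deposited it was 0.79 (adjusted p = 0.42, 0.13 with the block). It was 0.12 (SE 0.104) for myclobutanil, with adjusted p = 1 in both fits. At 10 uM the group means were 3.02 ± 0.11 (SD, n = 3) for triadimefon, 2.89 ± 0.13 for propiconazole and 2.79 ± 0.14 for myclobutanil, against 2.79 ± 0.12 in DMSO, and none was called. Over the 3 doses Insig1 rose by 0.49 units per log10 dose with myclobutanil (SE 0.104, limma adjusted p = 0.038). This slope was called in 4 of 12 alternative settings. Among the 8 that ended the call were the values as deposited (0.52, adjusted p = 0.95), no filter (0.49, 0.063), and leaving out Rs293 (0.38, 0.44) or Rs304 (0.54, 0.30). The slope was 0.29 with propiconazole (adjusted p = 0.095, 0.0020 with the block), but 0.060 on the values as deposited (adjusted p = 0.98, 0.94 with the block), and 0.28 with triadimefon (adjusted p = 0.46, 0.020 with the block). With the block on the values as deposited, the triadimefon slope had adjusted p = 0.71 and the difference at 30 uM 0.72.

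Scap, the escort that carries SREBP from the endoplasmic reticulum, rose with propiconazole. Its probe set 1389567_at read 0.82, 0.77 and 0.81 in DMSO and 1.09, 1.03 and 0.97 with propiconazole at 100 uM (Rs256, Rs293, Rs304), without overlap. The change was 0.23 (SE 0.047, limma adjusted p = 0.0017, n = 3 per group). With triadimefon at 100 uM the values were 0.95, 0.98 and 0.95, again all above DMSO, and the change of 0.16 (SE 0.047) had an adjusted p of 0.095 and of 0.026 with the block. Myclobutanil at 100 uM gave 0.97, 0.89 and 0.96, above DMSO in all arrays, a change of 0.14 (SE 0.047) that was not called in either limma fit (adjusted p = 0.22, 0.064 with the block). Leaving out Rs304 ended the propiconazole call (0.26, adjusted p = 0.062). The other Scap probe set, 1384464_at, was above the array median in 4 of 35 arrays and was called in no contrast against DMSO.

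Insig2, which retains Scap like Insig1 but is not known as a target of SREBP-2, gave no call against DMSO from either probe set. Probe set 1389377_at read 2.18, 1.91 and 1.73 in DMSO and 1.91, 1.67 and 1.51 with propiconazole at 100 uM. The groups overlapped, yet the value was lower within each code, with changes of -0.26, -0.23 and -0.22. The change was -0.24 (SE 0.168, 95% interval -0.58 to 0.11), with a limma adjusted p of 0.44 and of 0.060 with the block. Probe set 1393690_at changed by -0.087 (SE 0.126). With myclobutanil and triadimefon at 100 uM the change of 1389377_at was 0.085 and -0.045.

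Srebf2, the gene of the transcription factor itself, did not pass the test in any contrast with DMSO. Probe set 1371979_at read 1.19, 1.18 and 1.23 in DMSO, 1.23, 0.93 and 0.997 with propiconazole at 100 uM, 1.27, 0.99 and 1.25 with myclobutanil and 1.13, 1.32 and 1.20 with triadimefon. The 3 triazole groups all overlapped DMSO. The changes were -0.15 (SE 0.090), -0.027 (SE 0.090) and 0.015 (SE 0.090), with limma adjusted p of 0.35, 0.97 and 0.97. The other Srebf2 probe set, 1377489_at, was above the array median in 0 of 35 arrays, between -0.34 and -0.14, and was not tested.

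Stard4, a soluble carrier that moves cholesterol between membranes, gave the member probe set whose call held in the most alternative settings. In DMSO 1396521_at read 0.45, 0.25 and 0.35 in Rs256, Rs293 and Rs304. With propiconazole at 100 uM it read 0.88, 0.76 and 0.83, each above all arrays of the other 11 groups. The change was 0.47 (SE 0.078, limma adjusted p = 0.00019, n = 3 per group), within codes 0.43, 0.51 and 0.47, and it was called in 18 of 18 alternative settings. With myclobutanil it read 0.71, 0.54 and 0.62, and with triadimefon 0.75, 0.60 and 0.52, all above DMSO. Both changes were 0.27 (SE 0.078), with adjusted p of 0.12 and 0.082 in limma and of 0.00026 and 0.00021 with the replicate block.

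The second Stard4 probe set, 1392516_a_at, moved with the first (r = 0.88 across 35 arrays after each code's mean was removed, a description, since both probe sets share the arrays). It rose by 0.32 (SE 0.090, limma adjusted p = 0.019) with propiconazole at 100 uM, from 0.32, 0.24 and 0.25 in DMSO to 0.59, 0.64 and 0.54. That call ended without Rs293 (0.28, adjusted p = 0.31), Rs304 (0.34, 0.093), the DMSO array of Rs293 (0.31, 0.072) or of Rs304 (0.32, 0.058) and the propiconazole array of Rs293 (0.30, 0.067). With myclobutanil the change was 0.30 (SE 0.090, adjusted p = 0.14, 0.00056 with the block) and with triadimefon 0.23 (SE 0.090, adjusted p = 0.25, 0.0038 with the block). At 30 uM the block fit called 1396521_at and 1392516_a_at for propiconazole (0.17, adjusted p = 0.031, and 0.24, adjusted p = 0.014) and 1396521_at for triadimefon (0.19, adjusted p = 0.031). Without the block none of these 3 was called (adjusted p = 0.81, 0.69 and 0.88). The third Stard4 probe set, 1386279_at, lay near the array median (above it in 3 of 35 arrays) and was not called. Its change with propiconazole at 100 uM was 0.012 (SE 0.044), without the rise of the other Stard4 probe sets. At so low a signal this says little about the gene.

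The slope of 1396521_at on dose was 0.45 units per log10 dose with propiconazole (SE 0.078, limma adjusted p = 0.00054), 0.30 with myclobutanil (adjusted p = 0.12, 0.00022 with the block) and 0.16 with triadimefon (adjusted p = 0.66, 0.043 with the block). For 1392516_a_at the slopes were 0.28 with propiconazole (adjusted p = 0.059, 0.00028 with the block), 0.32 with myclobutanil (adjusted p = 0.18, 0.00097 with the block) and 0.12 with triadimefon (adjusted p = 0.82, 0.20 with the block). Scap 1389567_at had a called slope with propiconazole, 0.17 (SE 0.047, adjusted p = 0.023), and its probe set 1384464_at was called with the block alone (0.14, adjusted p = 0.043, 0.15 without it). Without Rs304 the propiconazole slope of Stard4 1396521_at was 0.45 with adjusted p = 0.069, and that of Scap 0.20 with adjusted p = 0.21. The Scap slope was also not called without Rs256 (0.14, adjusted p = 0.089) or without Rs293 (0.17, adjusted p = 0.11).

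**Figure D2:**
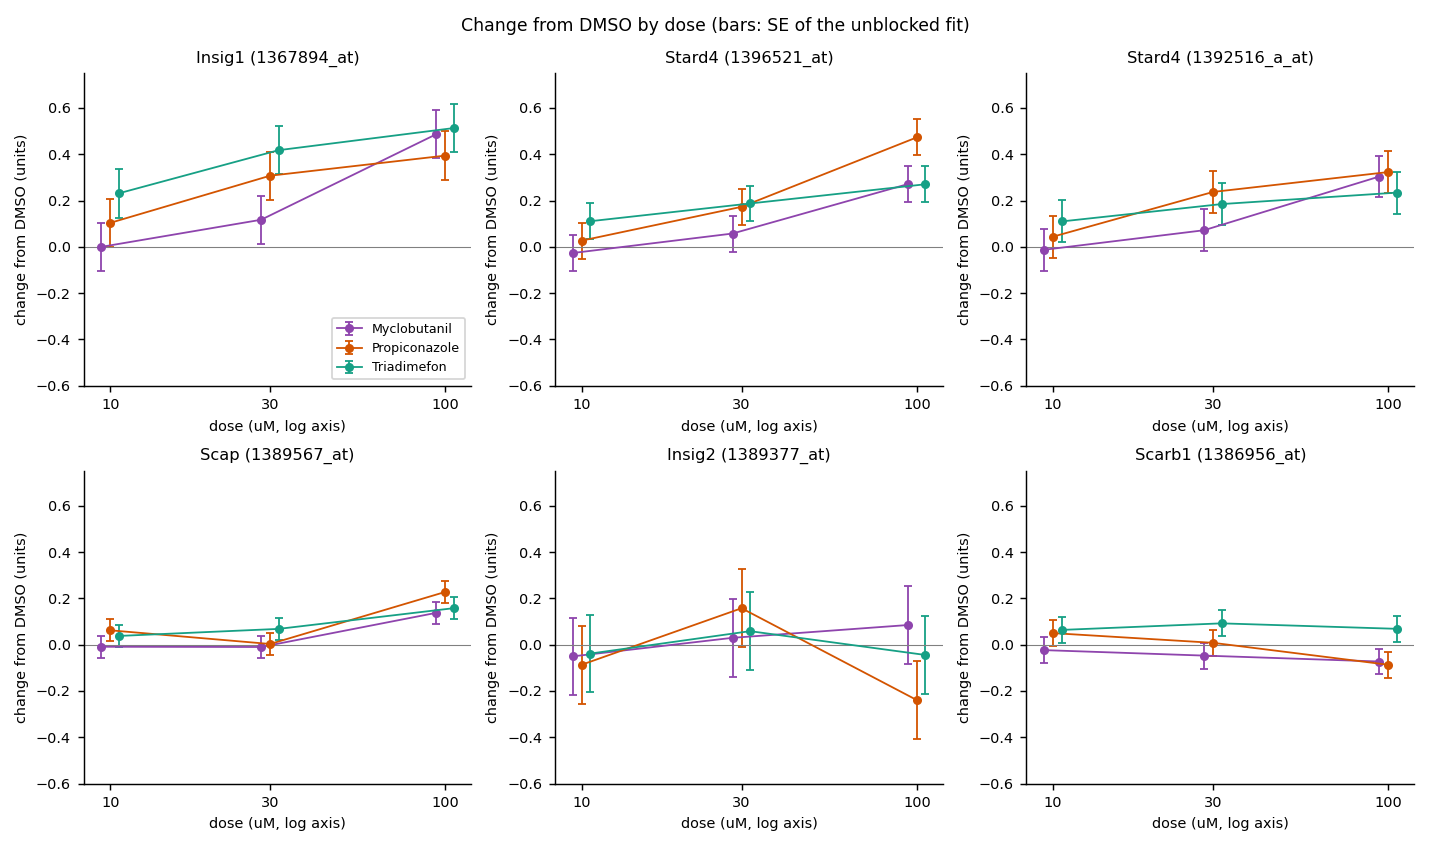
Change from DMSO in units (vertical axis) against dose in uM (horizontal axis, logarithmic) for 6 member probe sets and the 3 triazoles. Points are differences of group means (n = 3 arrays) and bars the SE of the unblocked limma fit. Insig1 and Stard4 climb with dose in all 3 compounds, and propiconazole lies highest at 100 uM for Stard4 1396521_at (0.47 against 0.27 and 0.27).

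Abca1, the pump that hands cellular cholesterol to lipid-poor apolipoproteins, differed mainly between codes. Its probe set 1382431_at read 1.56, 1.23 and 1.08 in DMSO. With triadimefon at 100 uM it read 1.97, 1.10 and 1.11, with propiconazole 1.90, 1.05 and 0.89, and with myclobutanil 1.58, 1.06 and 0.79. In all 11 groups that held an Rs256 array that array was the highest. Against the DMSO array of the same code the change was 0.41 in Rs256, -0.13 in Rs293 and 0.028 in Rs304 with triadimefon, 0.35, -0.18 and -0.19 with propiconazole and 0.025, -0.17 and -0.29 with myclobutanil.

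With propiconazole and triadimefon all 4 Abca1 probe sets were higher than DMSO in Rs256, by 0.29 to 0.41, while their changes in Rs293 and Rs304 lay between -0.26 and 0.091. The 4 probe sets correlated at r = 0.82 to 0.93 with each other across 35 arrays after each code's mean was removed, again as a description. No Abca1 probe set was called against DMSO in either fit. For 1382431_at the change was 0.10 (SE 0.259) with triadimefon, -0.0086 (SE 0.259) with propiconazole and -0.15 (SE 0.259) with myclobutanil, and for propiconazole the 95% interval ran from -0.54 to 0.52.

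**Figure D3:**
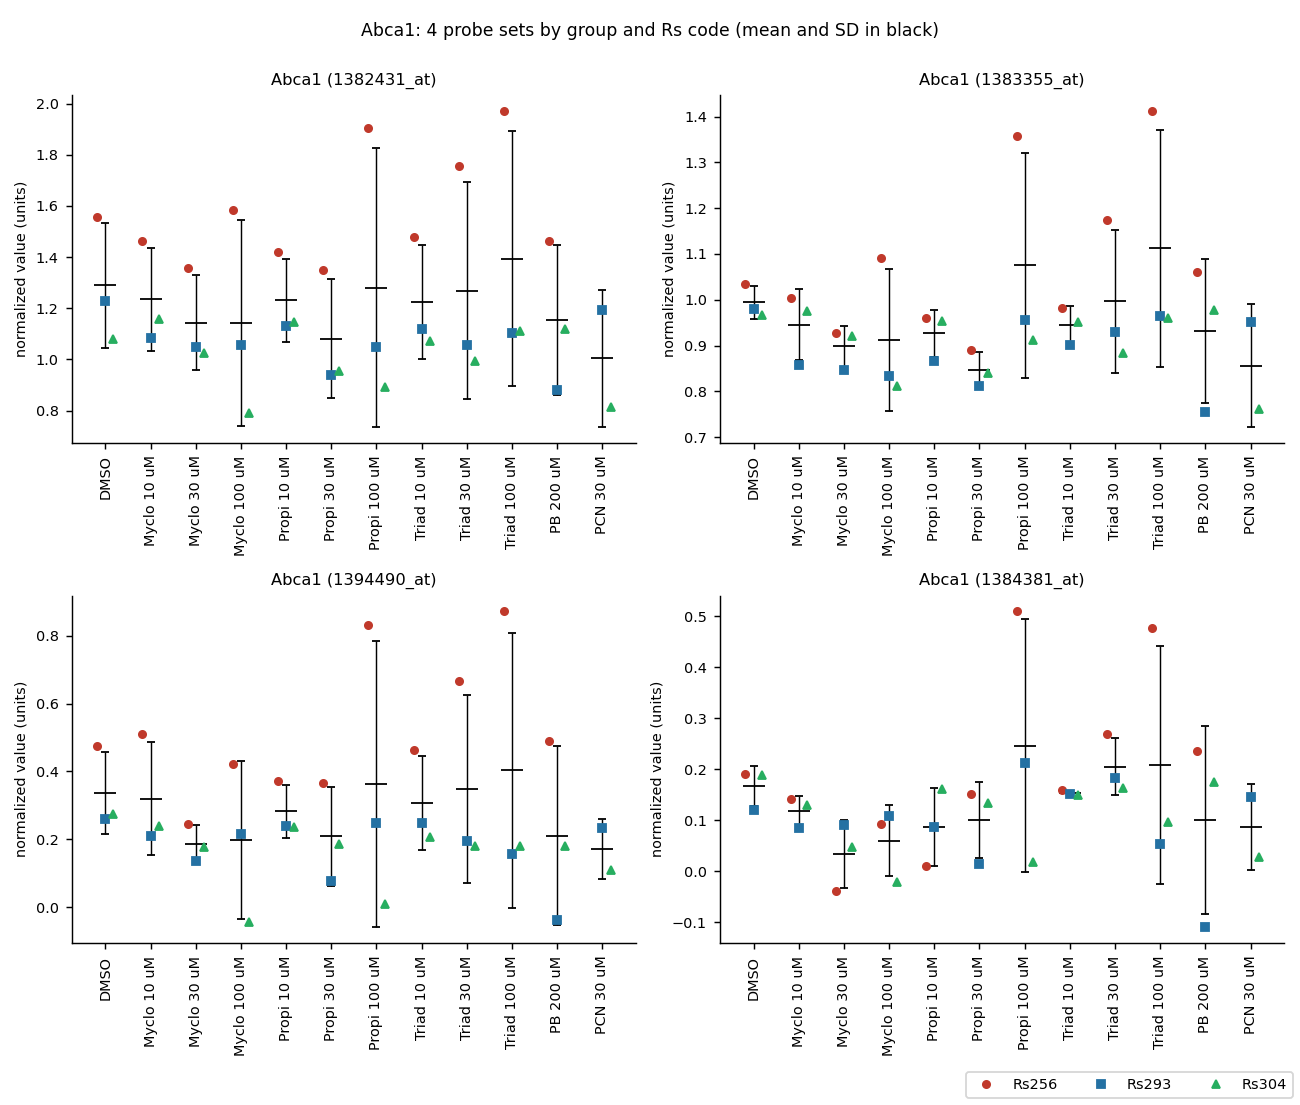
Normalized value in units (vertical axis, its range set per panel) of the 4 Abca1 probe sets in the 12 groups (horizontal axis). Points are arrays marked by Rs code and black bars the group mean and SD (n = 3, PCN n = 2). Rs256 stands above Rs293 and Rs304 in the propiconazole and triadimefon groups at 100 uM, where 1382431_at reads 1.90 and 1.97 in Rs256 and at most 1.11 in the others.

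Scarb1, the receptor through which hepatocytes take cholesterol esters from HDL, was not called in any contrast with all arrays in. Probe set 1386956_at read 0.99, 0.97 and 1.01 in DMSO and 1.11, 0.83 and 0.78 with propiconazole at 100 uM, so that Rs256 lay above DMSO and Rs293 and Rs304 below it. The change was -0.087 (SE 0.056, limma adjusted p = 0.39). Without the Rs256 array of that group it was -0.19 (adjusted p = 0.0069), and without Rs256 in all groups -0.19 (adjusted p = 0.012). With triadimefon at 100 uM the values were 1.06, 1.04 and 1.08, above DMSO without overlap, and with myclobutanil 0.95, 0.90 and 0.91, below it without overlap; the changes of 0.068 and -0.073 (SE 0.056 each) had adjusted p of 0.74 and 0.77. Probe set 1367855_at changed by -0.012 (SE 0.073) with propiconazole.

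Counted over the 15 tested probe sets, propiconazole at 100 uM called 4 (Insig1, Scap and 2 of Stard4), all higher, where 11.3% of all 17973 were called and 5.79% were called higher. With the replicate block the count was again 4, against a background of 27.1% called and 13.7% called higher. Myclobutanil at 100 uM called 1 (Insig1) against 0.785% in all and 0.373% called higher, and 3 with the block against 8% and 3.77%. Triadimefon called 1 (Insig1) against 1.55% and 0.69%, and 4 with the block against 9.96% and 4.71%. The median change of the members was 0.035, 0.026 and 0.066 for myclobutanil, propiconazole and triadimefon, beside 0.0053, 0.0036 and 0.0047 over all probe sets tested. Above all DMSO arrays without overlap lay 4, 4 and 5 of the 15, where 6.63%, 13.8% and 10.6% of all tested probe sets did so. Below all DMSO arrays lay 2 with myclobutanil (Abca1 1384381_at and Scarb1 1386956_at), 0 with propiconazole and 0 with triadimefon, beside 6.10%, 12.7% and 9.20% of all.

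At 30 uM no member was called without the block, at a background of 0.00556% for myclobutanil, 0.0111% for propiconazole and 0.0278% for triadimefon; 0, 3 and 2 members had an unadjusted p under 0.05. With the block the counts were 0, 3 and 2 beside 0.0167%, 1.81% and 0.868%. At 10 uM, with phenobarbital and with PCN, limma called 0 members in either fit, where between 0% and 0.0223% of all probe sets were called, and 1 of 15 members had an unadjusted p under 0.05 with triadimefon at 10 uM and 0 in the other 4. For phenobarbital 184 of 17973 probe sets had an unadjusted p under 0.05. Insig1 read 2.97, 2.86 and 2.88 with phenobarbital (0.12, SE 0.104) and 2.72 and 2.96 with PCN in Rs293 and Rs304 (0.050, SE 0.117), and Stard4 1396521_at changed by 0.084 (SE 0.078) and 0.10 (SE 0.087).

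For the slopes on dose the members called were 1, 2 and 0 for myclobutanil, propiconazole and triadimefon, beside 0.206%, 7.94% and 0.0612% of all probe sets. With the block they were 3, 5 and 2, beside 5.02%, 22.3% and 2.81%.

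**Figure D4:**
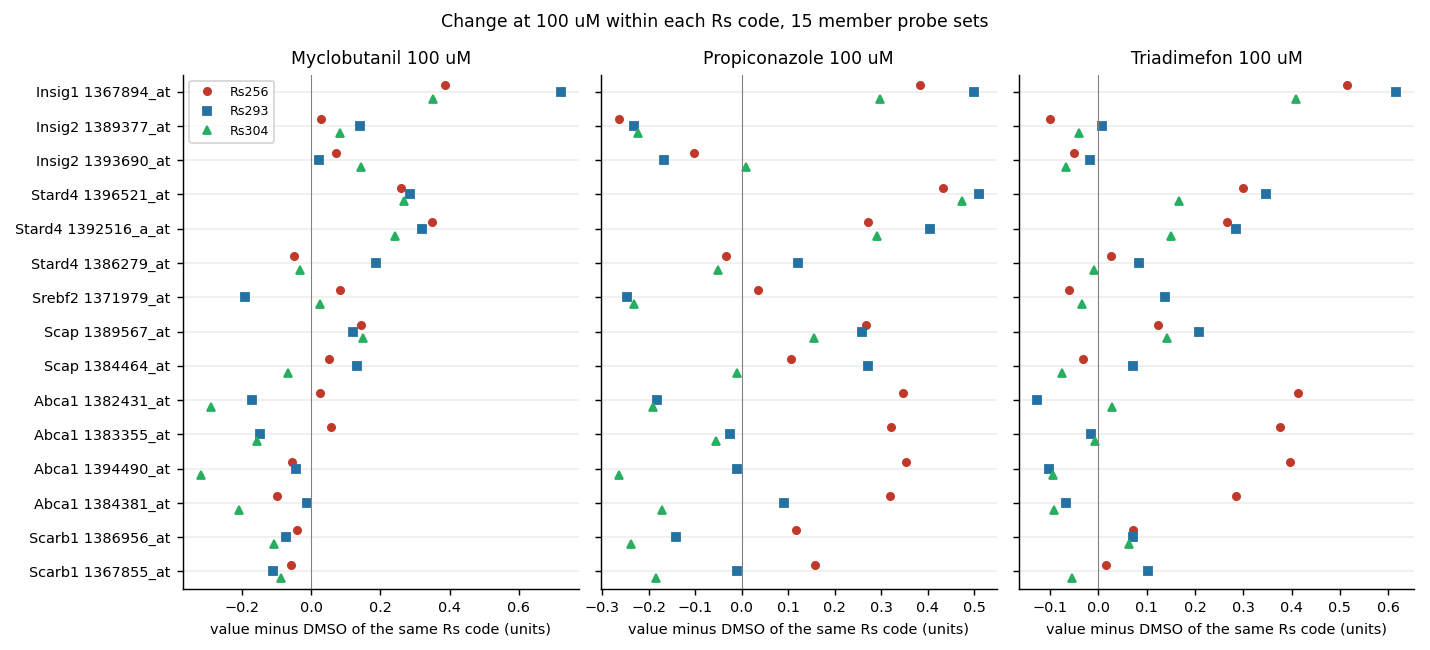
Change at 100 uM against the DMSO array of the same Rs code in units (horizontal axis, its range set per panel) for the 15 tested member probe sets (rows) and the 3 triazoles (panels). Each point is 1 pair of arrays. Insig1, both higher Stard4 probe sets and Scap 1389567_at lie to the right of 0 in all 3 codes and all 3 compounds, and Abca1 with propiconazole and triadimefon lies far to the right in Rs256 alone.

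The triazoles were compared with each other in 9 pairs at matched doses, with p adjusted over all probe sets within each pair. Without the block limma called no member in any pair; at 100 uM 1, 3 and 1 members had an unadjusted p under 0.05 for propiconazole against myclobutanil, propiconazole against triadimefon and myclobutanil against triadimefon, where 0.562%, 0.501% and 0% of all probe sets were called. With the block, 2, 1 and 0 members were called beside 5.84%, 5.22% and 0.0167%. Propiconazole stood above myclobutanil in Stard4 1396521_at by 0.20 (SE 0.078, 95% interval 0.042 to 0.36, limma adjusted p = 0.35, 0.0047 with the block). It stood above triadimefon by 0.20 (95% interval 0.043 to 0.36, adjusted p = 0.35, 0.0054 with the block). The second Stard4 probe set, 1392516_a_at, was called in neither pair, with or without the block. Its means at 100 uM were 0.59 with propiconazole, 0.57 with myclobutanil and 0.50 with triadimefon. In Insig2 1389377_at propiconazole lay below myclobutanil, at -0.32 (95% interval -0.67 to 0.021, adjusted p = 0.60, 0.040 with the block).

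For Insig1 no pair at 100 uM passed the test in either fit. The difference was -0.093 for propiconazole minus myclobutanil (95% interval -0.31 to 0.12), -0.12 for propiconazole minus triadimefon (-0.33 to 0.096) and -0.026 for myclobutanil minus triadimefon (-0.24 to 0.19). These intervals do not show that the compounds act alike on this gene. At 10 and 30 uM 0% of all probe sets were called in any of the 6 pairs, with or without the block. The widest difference in Insig1 at 30 uM was myclobutanil minus triadimefon, -0.30 (95% interval -0.52 to -0.086, adjusted p = 1). Of the 3 differences between slopes, 1 was called for a member, with the block alone: Stard4 1396521_at rose more steeply with propiconazole than with triadimefon, by 0.29 per log10 dose (95% interval 0.063 to 0.51, adjusted p = 0.70, 0.015 with the block). All probe sets called there made up 0.0167% without and 0.996% with the block. For propiconazole minus myclobutanil they were 0% and 0.835%, and for myclobutanil minus triadimefon 0% in both fits.

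Across the 35 arrays, after each code's mean was removed, Insig1 went with both higher Stard4 probe sets (r = 0.77 for 1396521_at and 0.84 for 1392516_a_at) and with Scap 1389567_at (r = 0.62). Its r with Insig2 was 0.069 and 0.076 and with Srebf2 -0.095. These values describe arrays that share treatments and codes. Ranked by likeness to Insig1 among all tested probe sets of other genes, the first 5 were those of Sqle (r = 0.94), an enzyme of sterol synthesis, Scd2 (0.92 and 0.91), a fatty acid desaturase, Acss2 (0.91), which makes acetyl-CoA from acetate, and Slc16a6 (0.91), a transporter of the monocarboxylate family. For Stard4 1396521_at they were Eif4b, Gcat, Stat5b, Atp6v0b and Pla2g12a, all at r = 0.92, and for Abca1 1382431_at Dab2 (0.85), Hsd17b12 (0.78), Nrg1 (0.78), Mapkapk3 (0.77) and Cxcl10 (0.76). Much of the rankings for Stard4 and Abca1 rests on the removal of the code means, and less of that for Insig1. Without the removal r of Abca1 with Dab2 was -0.52. For Stard4, Gcat, Stat5b, Atp6v0b and Pla2g12a then stood at ranks 124, 70, 210 and 902, and Eif4b (rank 3) stayed among the first 5. For Insig1, Sqle (rank 1), Acss2 (2) and the Scd2 probe set with r = 0.92 (3) stayed among the first 5. The other Scd2 probe set stood at rank 10 and Slc16a6 at rank 276.

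Some of the enzymes that make sterols, most of them textbook SREBP-2 targets, rose at 100 uM. Of 19 listed genes 17 had a probe set, all tested. Propiconazole at 100 uM raised 12 and lowered 0 (13 and 1 with the block), where 11.3% of all probe sets were called (27.1% with the block). It raised Acat2 by 0.83 (SE 0.063, limma adjusted p = 7.4e-09), Cyp51 by 0.53 (SE 0.111, adjusted p = 0.0020) and Mvd by 0.51 (SE 0.084, adjusted p = 0.00018). Myclobutanil raised 5 (12 with the block) beside 0.785% of all called (8% with the block). Triadimefon raised 4 (11 with the block) beside 1.55% (9.96% with the block), and Acat2, Mvd, Ebp and Sc5d were called with all 3. The median change of the list was 0.34, 0.44 and 0.27 for myclobutanil, propiconazole and triadimefon, beside 0.0053, 0.0036 and 0.0047 over all probe sets. On the values as deposited the calls were 1, 2 and 1. The differences of Nsdhl and Dhcr7 were -0.052 and -0.0018 with myclobutanil, -0.13 and -0.20 with propiconazole and -0.059 and -0.090 with triadimefon; Dhcr7 with propiconazole was the 1 called lower with the block (adjusted p = 0.044, 0.55 without it).

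A further 34 genes of sterol regulation and transport had 29 with a probe set and 26 tested. Propiconazole at 100 uM changed 5 of these and 11 with the block (7 up and 4 down), where 11.3% of all probe sets were called and 27.1% with the block. On the values as deposited the count was 3, and the share of all probe sets called in that fit is not given here. In the main fit propiconazole raised Soat1, which esterifies cholesterol (0.20, SE 0.050, limma adjusted p = 0.010), Pdzk1, the adaptor that holds the HDL receptor at the membrane (0.42, SE 0.128, adjusted p = 0.031), and Osbp, an oxysterol binding protein (0.15, SE 0.044, adjusted p = 0.021). It lowered Lcat and Stard5. Lcat, which esterifies cholesterol in plasma, fell by 0.87 (SE 0.196, adjusted p = 0.0037), and Stard5, a relative of Stard4, fell by 0.19 (SE 0.051, adjusted p = 0.015). Myclobutanil and triadimefon at 100 uM each changed 0 of 26 without the block and 3 up and 3 down with it. Of all probe sets 0.785% and 1.55% were called without the block, and 8% and 9.96% with it. Lcat, Stard5 and Pdzk1 were called with the block for both compounds, in the same direction as with propiconazole. With myclobutanil and triadimefon Lcat changed by -0.645 and -0.60, Stard5 by -0.21 and -0.16 and Pdzk1 by 0.49 and 0.39. Soat1 and Osbp were called for neither compound in either fit. The list's median change was 0.019, 0.018 and 0.019 for myclobutanil, propiconazole and triadimefon, beside 0.0053, 0.0036 and 0.0047 over all probe sets.

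Of 10 macrophage markers 9 had a probe set and 6 were tested, and Cd68 was called with propiconazole at 100 uM, by 0.80 (SE 0.198, limma adjusted p = 0.0076). With triadimefon the Cd68 difference was 0.39 (adjusted p = 0.45, 0.0039 with the block). The median change of the 6 was -0.0078 with propiconazole, beside 0.0036 over all probe sets, and with the block 2 of them were called (Cd68 and Cd14, the latter 0.39, adjusted p = 0.62 without the block and 0.0018 with it). Of all probe sets 11.3% were called with propiconazole at 100 uM without the block and 27.1% with it. The mean level of the 9 was 0.13 to 0.37 in the DMSO arrays and 0.25 to 0.40 in the propiconazole arrays, while Adgre1, Cd163 and C1qa did not pass the filter. In bulk RNA fewer cells of a type and less RNA per cell cannot be told apart, and the part of other cells in the member changes was not tested.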

How the data were processed

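Gene expression was measured on 35 Affymetrix rat genome arrays, per the labels' protocols. The values deposited by the authors are a score on a log-like scale, 1 per probe set and array, with 31099 probe sets (57 of them controls). Its log base, summarisation, background correction and normalization are not given in the sources used here. Probe sets were named from the platform's annotation: 20826 named 1 gene, 436 several and 9780 none, and the gene identifiers of 20758 matched RefSeq's rat table. No 2 arrays held identical values. No column of values was left out.

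The score was quantile normalized, because array SDs differed, and tested with limma 3.58.1 (lmFit, eBayes) in R 4.3.3 over all 35 arrays, 1 mean per group, two-sided, with Benjamini-Hochberg adjustment within each of 11 contrasts with DMSO, 9 pairs of triazoles at 1 dose, 3 slopes on log10 dose and 3 differences of slopes. Errors are SE of the fit, SD between arrays or 95% intervals. Precision is limited by how many arrays each group has. The procedure was tested on simulated data.

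The Rs codes pair the arrays: after group means were removed, same-code arrays of the groups compared correlated at r = 0.219 to 0.938 in all pairs (median 0.61 over same-code pairs of different groups, -0.35 over different codes). The negative median follows from the positive same-code r once group means are removed, and adds nothing to it. Since the protocols describe no pairing, the fit without the block stayed the main one. That fit leaves the spread between codes in its error, so a change not called there can be called with the block.

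The members, lists and settings were chosen with earlier results of these data known. Named were all members, at most 5 genes called at 100 uM per list and contrast, and the 5 probe sets most like Insig1, Stard4 and Abca1. Cd68 was named after its value was seen. Alternatives were the replicate block, 3 other scalings, no filter, 1 probe set per gene, fits of the compared groups alone, and leaving out codes or arrays. After the data were seen, the fit without the widest array and the block on the values as deposited were added.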

Additional observations from a re-analysis of the deposited data

Results flagged for a closer look

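At 100 uM the change against the DMSO array of the same code had one sign in all 3 triazoles in one Rs code and the opposite sign in another for 4 member probe sets. For Abca1 1382431_at the mean change was 0.26 in Rs256 and -0.16 in Rs293. For Abca1 1383355_at it was 0.25 in Rs256, -0.062 in Rs293 and -0.073 in Rs304. Stard4 1386279_at, near the array median, changed by 0.13 in Rs293 and -0.031 in Rs304, and Scap 1384464_at, also near the median, by 0.16 in Rs293 and -0.051 in Rs304. For these 4 the difference was not tested, since each code holds 1 array per group, and the 3 contrasts share the DMSO array of the code.

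The slope of Stard4 1396521_at on log10 dose differed between propiconazole and triadimefon, by 0.29 units, with a limma adjusted p of 0.015 when the replicate block was used and 0.70 without it. The second Stard4 probe set, 1392516_a_at, was not called for this difference in either fit.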

How the results depend on the processing

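No called change turned its sign under any alternative run. The replicate block moved the number of called members from 1 to 3 for myclobutanil and from 1 to 4 for triadimefon at 100 uM, from 0 to 3 for propiconazole and 0 to 2 for triadimefon at 30 uM, from 0 to 2 for propiconazole against myclobutanil and 0 to 1 against triadimefon at 100 uM, from 1 to 3, 2 to 5 and 0 to 2 for the slopes of myclobutanil, propiconazole and triadimefon, and from 0 to 1 for propiconazole minus triadimefon slopes. For propiconazole at 100 uM it left 4. With the block on the values as deposited, the counts were 2 for myclobutanil and triadimefon at 100 uM, 2 for propiconazole at 30 uM, 1 for each of the 2 pairs and 2 for the myclobutanil slope. Of all 17973 probe sets, those fits called 515 for triadimefon at 100 uM and 209 for propiconazole at 30 uM. The number for myclobutanil at 100 uM lay between these. At 100 uM 156 were called for propiconazole against myclobutanil and 201 against triadimefon, and 108 for the myclobutanil slope. On the values as deposited, with median centring alone, with centring and scaling, and with the compared groups fitted alone, the counts were 0 for myclobutanil at 100 uM, for triadimefon at 100 uM and for the myclobutanil slope, which was 0 without the filter too. Few probe sets were called at all there: 14, 15, 7 and 2 of 17973 for myclobutanil at 100 uM, in that order. For triadimefon they were 36, 34, 36 and 18. For the myclobutanil slope they were 1, 2, 2 and 0, and 30 of 31042 without the filter. The propiconazole slope had 1 on the values as deposited, with centring and scaling and with the compared groups alone, where 569, 509 and 509 of all probe sets were called. The cause was not tested.

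Leaving out codes or single arrays gave 0 to 1 called members for myclobutanil at 100 uM, 1 to 5 for propiconazole, 0 to 1 for triadimefon, 0 to 1 for propiconazole against triadimefon (1 without Rs256), 0 to 1 for the myclobutanil slope and 0 to 4 for the propiconazole slope (4 without Rs256, 1 without Rs293, 0 without Rs304). The calls over all 17973 probe sets moved too. For the propiconazole slope they were 1801, 617 and 291 without Rs256, Rs293 and Rs304, beside 1427 with all arrays. Without Rs293 and without Rs304 they were 73 and 14 for myclobutanil at 100 uM and 115 and 19 for triadimefon. The propiconazole count at 100 uM fell to 2 without Rs293, 1 without Rs304 and 2 without the DMSO array of Rs293. Over all 17973 probe sets, 1173, 560 and 1305 were called in these fits, beside 2034 with all arrays. Insig1 at 100 uM lost its call without Rs293, without Rs304 or without the DMSO array of Rs293 in all 3 triazoles (adjusted p between 0.055 and 0.40), and so it did without the DMSO array of Rs304 (0.097), the treated array of Rs256 (0.095) or of Rs293 (0.11) for myclobutanil and the treated array of Rs256 for propiconazole (0.074) and triadimefon (0.082). Over all its alternatives the change of Insig1 ran from 0.37 to 0.64 for myclobutanil, 0.34 to 0.46 for propiconazole and 0.45 to 0.74 for triadimefon.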
